A study of Mus musculus with 5 samples.

Results

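The GABAergic interneuron lineage was followed through an RNA immunoprecipitation of mouse neocortex by 8 of its genes: the homeobox genes Dlx1, Dlx2, Dlx5, Dlx6, Gsx2 and Lhx6 and the glutamate decarboxylase genes Gad1 and Gad2. They were taken by gene name from the deposited table, each name matched 1 row, and they make up 8 of the 49875 gene IDs measured. All 8 were among the 12769 genes tested, which had an abundance of at least 1 in at least 2 of 5 libraries. The tissue came from wild-type embryos on embryonic day E13.5, titled neocortex and given as forebrain in the source label. Cytoplasmic RNA served as Input (n = 2), and parts of it were precipitated with an antibody against eIF4E, the protein that binds the 5′ cap of mRNAs (n = 2), or with control rabbit immunoglobulin G (IgG, n = 1). All groups share genotype, age and lysis. The eIF4E and Input libraries are titled biological replicates, but the labels do not say which embryos or pools stand behind a library. The p-values therefore take in the spread of these libraries alone, which may be technical. Abundances were RSEM values per transcript length, either TPM or FPKM, and the depth behind them is unknown.

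Cortical interneurons arise outside the cortex, in the ganglionic eminences of the ventral forebrain, and migrate into it tangentially. In the eminences Gsx2 specifies progenitors, Dlx1 and Dlx2 drive GABAergic differentiation and switch on Dlx5 and Dlx6, and Lhx6 acts in postmitotic cells of the medial eminence. Gad1 and Gad2 encode GAD67 and GAD65, the enzymes that make GABA from glutamate. The Dlx genes lie in pairs that share enhancers, whereas the excitatory neurons of the cortex are born locally from Emx1- and Pax6-expressing progenitors.

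Column totals ran from 560076 (IgG) to 848550 (Input). The IgG library listed 11825 genes above 0, against 17412 to 18745 in the others, and 360 genes stood at 0 in it that exceeded 10 in every eIF4E and Input library. The neocortex markers Emx1, Emx2, Pax6, Eomes, Tbr1, Neurod2 and Neurod6 were above 0 in every library. Of the progenitor markers of the ganglionic eminences, Nkx2-1 was at 0 in every library and Gsx1 in all but 1 eIF4E library. Summed markers of several non-neural cell types were lower in the precipitates than in Input: erythroid markers stood at 15870 and 17310 in Input, 5979 and 4464 in eIF4E and 2053 in IgG. Endothelial markers stood at 66.4 and 68.5 in Input, 28.3 and 31.1 in eIF4E and 0.12 in IgG, and microglial markers at 47.8 and 54.7 in Input, 18.3 and 17.6 in eIF4E and 21.97 in IgG. Meningeal markers overlapped between Input (56.8 and 53.5) and eIF4E (52.6 and 55.8) and stood at 29.5 in IgG. The part of these shifts in the results below was not tested.

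The 5 genes Dlx1, Dlx6, Gad1, Gad2 and Lhx6 were higher in eIF4E than in Input, and Dlx2, Dlx5 and Gsx2 were lower (limma, adjusted p under 0.05). Each linked Dlx pair therefore held 1 gene that rose and 1 that fell. The 5 of 8 higher (62.5%) stood beside 43.3% of all genes tested, and the 3 of 8 lower (37.5%) beside 30.6%, so that calls in both directions were common throughout the table. Dlx6, Gad1 and Lhx6 entered the test only through the eIF4E libraries, where they are high, and would have failed the filter on Input and IgG alone. The count of 5 is therefore a description and no support for a rise of the group. Gsx2 entered only through Input and IgG, where it is higher than in eIF4E, so the count of 3 is likewise a description. For each of the 8 genes the 2 eIF4E libraries did not overlap the 2 Input libraries. With 2 libraries in each group such a gap can also arise by chance. The share of all genes tested that had such a gap was not counted. The gap is therefore a description and does not set the 8 genes apart. Levels were low: the median gene tested stood at 12.3 in both eIF4E libraries and at 8.97 and 8.78 in Input, and only Dlx1 in all 4 of them, and Dlx2 in Input, exceeded it. In bulk tissue, fewer cells of a type and less RNA per cell cannot be told apart, so the low Input levels do not separate scarce interneurons from weak expression.

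**Figure D1:**
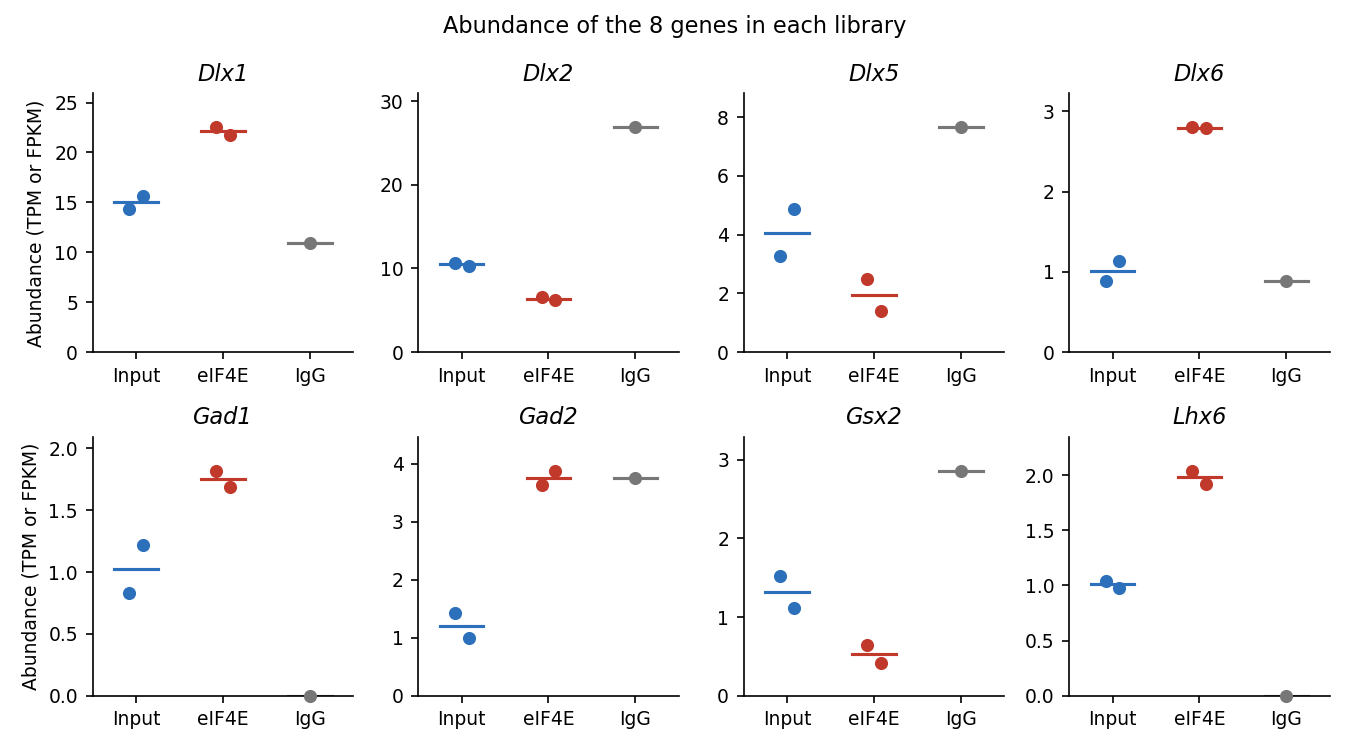
Abundance (TPM or FPKM, linear axis from 0, scaled per gene) of each gene in Input (blue), eIF4E (red) and IgG (grey); each point is 1 library and each line the mean. Dlx1, Dlx6, Gad1, Gad2 and Lhx6 have both eIF4E points above both Input points, and Dlx2, Dlx5 and Gsx2 have them below.

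Since eIF4E reads the capped end of a transcript, the bases around the annotated starts were looked at first. RefSeq (GRCm38.p6) starts were available for 6 of the 8 genes, with 3 alternative starts for Lhx6. Dlx5 and Dlx6 had no entry. Each line gives 30 bases, 5′ to 3′ on the gene's strand, with the 15 bases before the start in lower case and the first 15 transcribed bases in capitals.
Dlx1 (chr2:71529430-71529459, plus strand): agtggtccggggtccCAGGCGTTGGGGGCG
Dlx2 (chr2:71546740-71546769, minus strand): tgcaggagcctgcccGGCAGACAATCGTAA
Gsx2 (chr5:75075586-75075615, plus strand): ccgggcgggggacgtGAGGACCAACCCTCT
Lhx6, first start (chr2:36105394-36105423, minus strand): gtcgggaccttcttcAGAGGCAGTGGTGCT
Lhx6, second start (chr2:36104519-36104548, minus strand): tctcaaccaccaccaCCACTACCACCACCA
Lhx6, most downstream start (chr2:36104046-36104075, minus strand): ctcattgttcagcgcCGGTTTATATAACAG
Gad1 (chr2:70562114-70562143, plus strand): ccccactccgcccccGCCTCCCCCAAGCCC
Gad2 (chr2:22622312-22622341, plus strand): ccaccaagctccctcTCCCTAAAAATCTCT
A terminal oligopyrimidine leader, the cap-adjacent motif of many translation-factor mRNAs, begins with C followed by a run of pyrimidines. None of these 8 starts had a C followed by 4 bases that are each C or T, read on the transcribed strand from the first base, and 2.51% of the 32851 starts in the table did. Among the first 15 bases, Dlx1 and Dlx2 both had 5 pyrimidines, Gsx2 8, Gad2 10 and Gad1 11, against a median of 7 over all starts. Whether the number of pyrimidines goes with the direction of change was not tested. The starts shown for Dlx1, Gad1, Gad2 and Lhx6 lay inside the RefSeq gene spans given below, which begin further upstream. For these genes the bases shown may therefore not be the outermost annotated end. The starts of Dlx2 and Gsx2 matched the ends of their spans. Annotated starts may also differ from those used in this tissue.

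Gsx2, the progenitor factor upstream of the Dlx genes (ENSMUSG00000035946, chromosome 5, 75075601 to 75077893, GRCm38), measured 1.52 and 1.11 in Input, 0.65 and 0.42 in eIF4E and 2.86 in IgG. Both eIF4E libraries lay below both Input libraries and the IgG library lay above all of them. On the scale of value + 1, used for every fold change here, Gsx2 stood at 0.664 of Input in eIF4E (log2 −0.59, SE 0.16, limma adjusted p = 0.0226). The ratio of the plain means was 0.407. The pseudocount of 1 pulls folds of genes this low towards 1. Leaving out eIF4E replicate 2 ended the call (adjusted p = 0.0909), as did leaving out Input replicate 1 (0.104) or testing with no filter on low values (0.0556), in a range from 0.00466 to 0.104 over the alternatives tried. Gsx2 passed the filter through Input and IgG and was under 1 in both eIF4E libraries.

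The Dlx1 and Dlx2 genes face each other on chromosome 2, with 9426 bases between them. Dlx1 (ENSMUSG00000041911, 71528113 to 71533981) measured 14.38 and 15.67 in Input, 22.53 and 21.71 in eIF4E and 10.94 in IgG. It was the most abundant of the 8 genes in all 4 eIF4E and Input libraries. Its level rose 1.44-fold over Input (log2 0.53, SE 0.08, adjusted p = 0.00312). This call was missed after median-of-ratios scaling (adjusted p = 0.057) and quantile normalization (0.0545), where the fold change kept its sign (log2 0.22 in each). Over all alternatives the adjusted p ran from 7.3e-04 to 0.057.

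Dlx2 (ENSMUSG00000023391, 71543408 to 71546754) measured 10.71 and 10.35 in Input, 6.56 and 6.22 in eIF4E and 26.88 in IgG. Here eIF4E was lowest and IgG highest, with no overlap between groups. Dlx2 fell to 0.641 of Input (log2 −0.64, SE 0.08, adjusted p = 0.00169), and the call was kept under all 14 alternatives.

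Because both genes of a pair are read in the same library, their ratio does not depend on whether the values are TPM or FPKM. Dlx1 exceeded Dlx2 by 1.34 and 1.51 times in the Input libraries and by 3.43 and 3.49 times in the eIF4E libraries. In the IgG library the order was turned, with a ratio of Dlx1 to Dlx2 of 0.407. Dlx2 accordingly took 42.7% and 39.8% of the pair's summed level in Input, 22.6% and 22.3% in eIF4E and 71.1% in IgG. The shares of Input and eIF4E did not overlap. These shares are a description, and the difference in ratio was not tested.

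The second pair lies on chromosome 6, with 9830 bases between its genes. Dlx6 (ENSMUSG00000029754, 6863334 to 6867970) measured 0.88 and 1.14 in Input, 2.80 and 2.79 in eIF4E and 0.89 in IgG. Only the eIF4E libraries stood apart, and IgG lay within the Input values. Dlx6 rose 1.89-fold over Input (log2 0.92, SE 0.12, adjusted p = 0.00232), with a ratio of plain means of 2.77, and the call was kept under all 14 alternatives.

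Dlx5 (ENSMUSG00000029755, 6877801 to 6882068) measured 3.26 and 4.87 in Input, 2.49 and 1.41 in eIF4E and 7.66 in IgG. Its replicates were the most spread of the 8 genes, 1.95 ± 0.764 (SD, n = 2) in eIF4E and 4.07 ± 1.14 (SD, n = 2) in Input. Dlx5 fell to 0.58 of Input (log2 −0.79, SE 0.25, adjusted p = 0.0412). That call was fragile: it passed under 7 of 14 alternatives, with adjusted p from 0.00608 to 0.192, and was lost without eIF4E replicate 2 (0.164), Input replicate 1 (0.0606) or Input replicate 2 (0.192). Dlx5 made up 78.7% and 81.0% of the summed level of Dlx5 and Dlx6 in Input, 47.1% and 33.6% in eIF4E and 89.6% in IgG. In both linked pairs, then, the gene with the smaller share in eIF4E than in Input had its largest share in IgG.

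**Figure D2:**
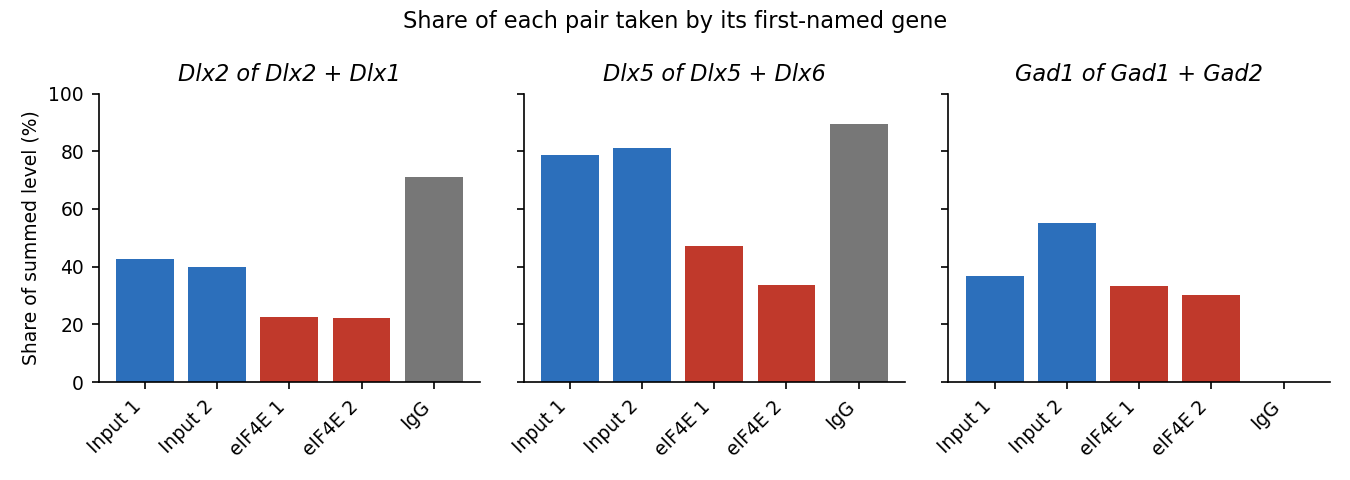
Share (%) of the summed level of a gene pair taken by Dlx2, Dlx5 or Gad1 in each library, with 1 bar per library. The Dlx2 share is 39.8% to 42.7% in Input and 22.3% to 22.6% in eIF4E, the Dlx5 share is lower in both eIF4E than in both Input libraries, and Gad1 is listed at 0 in IgG.

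Both Dlx genes that rose are overlapped by a noncoding gene in RefSeq, and the neighbours that fell are not. The span of Dlx1as, an antisense RNA gene, covers 57.0% of the Dlx1 gene span (3344 bases), and the long noncoding RNA gene Dlx6os1, also known as Evf2, contains all of Dlx6. A further noncoding gene inside Dlx6, Dlx6os2, was at 0.17 in both Input libraries and 0 elsewhere. Smart-seq2, by which the libraries were made, does not mark the strand, so reads in the shared stretches cannot be assigned to one gene or the other, and the values of Dlx1 and Dlx6 carry that uncertainty. Dlx1as measured 18.83 and 16.78 in Input, 20.57 and 23.48 in eIF4E and 21.4 in IgG, and did not pass against Input (1.22-fold, log2 0.29, adjusted p = 0.0511). Dlx6os1 measured 4.29 and 3.19 in Input, 6.08 and 6.71 in eIF4E and 0.08 in IgG. It rose 1.57-fold over Input (adjusted p = 0.0154). In IgG the Dlx6os1 value lay below that of Dlx6 (0.89), and in the other 4 libraries it lay above. The part of these overlaps in the rise of Dlx1 and Dlx6 was not tested.

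Lhx6, a LIM homeobox factor of interneurons from the medial eminence (ENSMUSG00000026890, chromosome 2, 36081950 to 36105992), measured 1.04 and 0.98 in Input, 2.04 and 1.92 in eIF4E and 0 in IgG. Both replicate pairs were tight and did not overlap. Lhx6 rose 1.48-fold over Input (log2 0.57, SE 0.11, adjusted p = 0.00904), and the ratio of plain means was 1.96. Quantile normalization took the difference to log2 0.13 and ended the call (adjusted p = 0.297), and adjusted p over the alternatives ran from 0.00283 to 0.297. Nkx2-1, the factor that switches on Lhx6 in the medial eminence, was at 0 in the same libraries. Lhx8, its companion in medial eminence lineages, was at 0 in Input and IgG and at 0.28 and 0.22 in eIF4E.

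Of the 2 GABA-synthesizing enzymes, Gad2 (ENSMUSG00000026787, chromosome 2, 22621015 to 22693877) had the largest fold over Input of the 8 genes. It measured 1.43 and 0.99 in Input, 3.64 and 3.88 in eIF4E and 3.76 in IgG, so that IgG lay between the eIF4E libraries. The rise over Input was 2.16-fold (log2 1.11, SE 0.14, adjusted p = 0.0019), with a ratio of plain means of 3.11, and was called under all 14 alternatives.

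Gad1 (ENSMUSG00000070880, chromosome 2, 70561303 to 70602014) measured 0.83 and 1.22 in Input, 1.82 and 1.69 in eIF4E and 0 in IgG. Its rise of 1.37-fold over Input (log2 0.45, SE 0.15, adjusted p = 0.0429) was the smallest of the 5. It passed under only 5 of 13 alternatives, with adjusted p from 0.0166 to 0.822, and was lost without eIF4E replicate 1 (0.13), eIF4E replicate 2 (0.0979) or Input replicate 1 (0.147). Gad1 held 36.7% and 55.2% of the summed Gad1 and Gad2 level in Input and 33.3% and 30.3% in eIF4E. Gad1 lies 926098 bases from Dlx1 on the same chromosome.

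Per transcript length, the order of mean levels in Input was Dlx1 (15.03), Dlx2 (10.5), Dlx5 (4.07), Gsx2 (1.31), Gad2 (1.21), Gad1 (1.02) and then Dlx6 and Lhx6 (1.01 each). Among the last 5, Gsx2 and Lhx6 did not overlap (1.11 and 1.52 against 0.98 and 1.04), and the Input values of the other pairs did, which sets no order among them. In eIF4E the order was Dlx1 (22.1), Dlx2 (6.39), Gad2 (3.76), Dlx6 (2.79), Lhx6 (1.98), Dlx5 (1.95), Gad1 (1.75) and Gsx2 (0.535). There the spread of Dlx5 took in the values of Lhx6 and Gad1. In IgG, Dlx2 stood first at 26.88, ahead of Dlx1 and Dlx5, and Gad1 and Lhx6 were listed at 0.

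The comparison of eIF4E with IgG sets the relative abundance of each mRNA in the eIF4E precipitate beside that in the control precipitate. It shares the eIF4E libraries with the comparison above, and the IgG group is 1 library taken to have the spread of the others. Dlx1, Dlx6, Gad1 and Lhx6 were higher in eIF4E (4 of 8, beside 53.1% of all genes tested), and Dlx2, Dlx5 and Gsx2 were lower (3 of 8, beside 30.6%). Dlx6, Gad1 and Lhx6 passed the filter only through the eIF4E libraries, and Gsx2 only through Input and IgG. Both counts are therefore descriptions and no support for a shift of the group. Dlx1 was 1.94-fold above IgG (log2 0.95, SE 0.10, adjusted p = 6.0e-04). Dlx6 was 2.01-fold above it (adjusted p = 0.00259), a direction that turned under quantile normalization (log2 −0.51, adjusted p = 0.0246; over all alternatives adjusted p ran from 0.00137 to 0.0246). Gad1 and Lhx6 were listed at 0 in IgG, as were many well-expressed genes, so no fold is given; their adjusted p was 0.00127 and 4.1e-04, and both calls were lost under quantile normalization (0.743 and 0.321). Dlx2 was at 0.265 of IgG (log2 −1.92, SE 0.10, adjusted p = 7.3e-05), Dlx5 at 0.335 (adjusted p = 0.00678) and Gsx2 at 0.397 (adjusted p = 0.0022), each called under all 12 alternatives. Gad2 was at the IgG level (log2 0.00, 95% interval −0.45 to 0.45), although quantile normalization placed it below IgG (log2 −0.77, adjusted p = 0.0109).

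The lone IgG library was also set against Input, to show what the control precipitate holds. Dlx2, Gad2 and Gsx2 were higher in IgG than in Input (3 of 8, beside 37.8% of all genes tested), and Dlx1, Gad1 and Lhx6 were lower (3 of 8, beside 50.3%). Gad1 and Lhx6 are counted there from listed zeros. This library also listed 360 genes at 0 that exceeded 10 in all others, so a zero need not mean absence. Neither Gad1 nor Lhx6 passed under quantile normalization (log2 −0.03, adjusted p = 0.877, and −0.02, adjusted p = 0.878). Dlx2 was 2.42-fold above Input there (log2 1.27, adjusted p = 1.8e-04), Gad2 2.16-fold (adjusted p = 0.00259) and Gsx2 1.67-fold (adjusted p = 0.0166, lost without Input replicate 2 at 0.0633). Gad2 thus stood 2.16-fold above Input in both kinds of precipitate. Dlx1 was at 0.746 of Input (adjusted p = 0.0102), a direction that turned when every library was scaled to 1 total (log2 0.13, adjusted p = 0.258). Dlx5 at 1.73-fold (95% interval of the log2 fold change −0.02 to 1.61) did not pass, but it did under that scaling to 1 total (log2 1.301, adjusted p = 0.00939) and with a pseudocount of 5 (log2 0.49, adjusted p = 0.0316), in a range of adjusted p from 0.00939 to 0.209. Dlx6 at 0.942 did not pass either, and it was above Input under quantile normalization (log2 0.90, adjusted p = 0.00303) and scaling to 1 total (log2 0.21, adjusted p = 0.235).

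**Figure D3:**
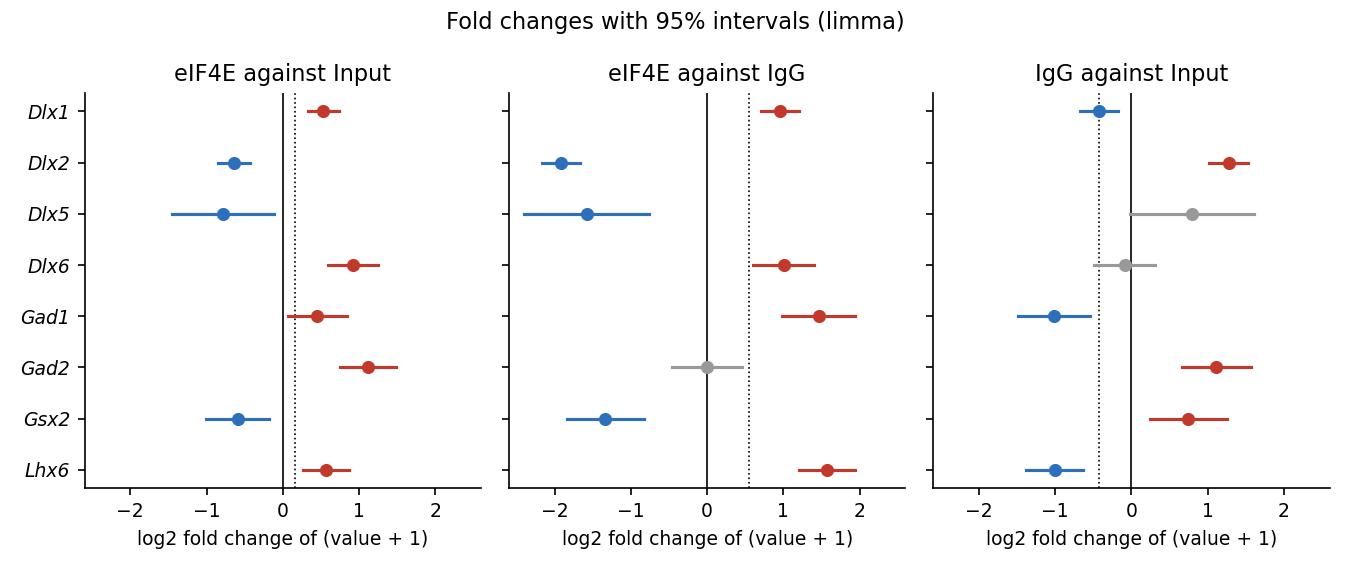
Log2 fold change of (value + 1) with its 95% limma interval for each gene in the 3 comparisons; red marks genes called higher, blue lower and grey not called, the solid line is 0 and the dotted line the median of all genes tested. Dlx2, Dlx5 and Gsx2 lie left of 0 in both comparisons of eIF4E, and Gad2 lies at 0 against IgG.

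The median gene was itself shifted, by log2 0.16 in eIF4E against Input, 0.55 in eIF4E against IgG and −0.43 in IgG against Input. Relative to that median, in eIF4E against Input, Gad2 lay at 0.96, Dlx6 at 0.76, Lhx6 at 0.41, Dlx1 at 0.37 and Gad1 at 0.29 on the log2 scale, and Gsx2 at −0.75, Dlx2 at −0.80 and Dlx5 at −0.94. None changed side. Gad2 had a higher fold change than 79.2% of the genes tested and Dlx5 than 12.7%, so none of the 8 was extreme in the table. Median-of-ratios scaling and quantile normalization moved the median gene of this comparison to −0.11 and −0.12, and scaling to 1 total moved it to 0.36.

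**Figure D4:**
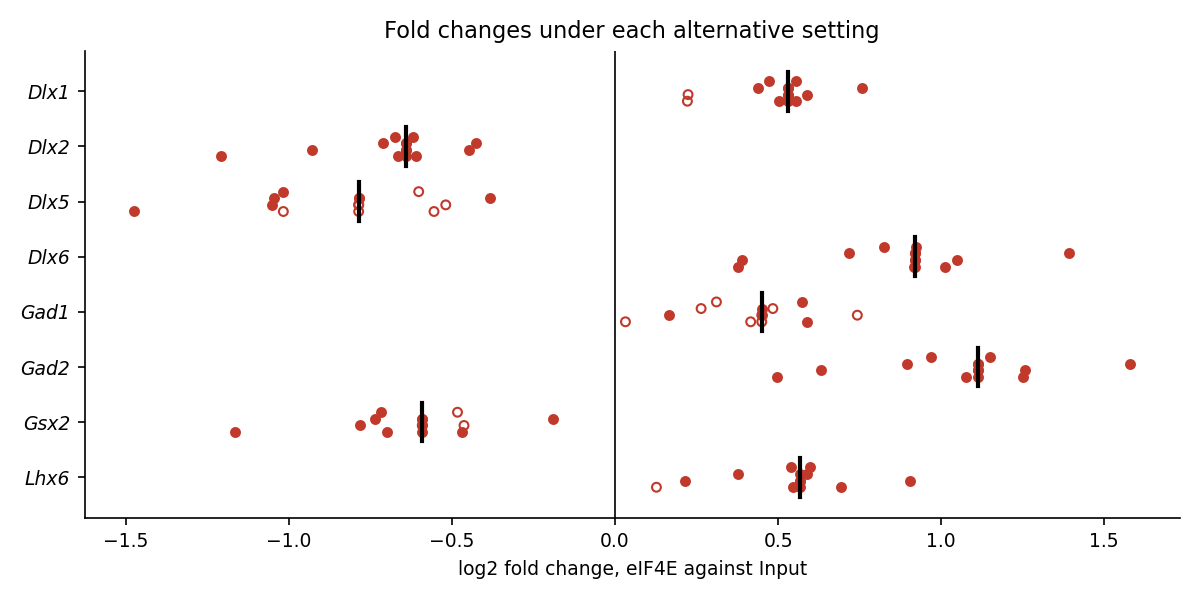
Log2 fold change of each gene in eIF4E against Input under the alternative settings (points; filled where adjusted p is under 0.05, open where not) and as reported (black bars). No gene changes sign, and open points are found for Dlx1, Dlx5, Gad1, Gsx2 and Lhx6.

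Other genes of the lineage were read from gene lists. Of 21 interneuron lineage factors and noncoding RNAs of the Dlx loci, 16 were tested, and 11 were higher and 1 lower in eIF4E than in Input (median log2 0.67, against 0.49 for the 8 genes and 0.16 for all genes). Against IgG, 7 were higher and 6 lower (median log2 −0.10, against 0.55 for all genes). For this list and those that follow, the counts over Input stand beside 43.3% of all genes called higher and 30.6% lower, and those over IgG beside 53.1% and 30.6%. Satb1, a chromatin organizer needed by maturing interneurons, rose from 3.17 and 3.82 in Input to 24.80 and 25.12 in eIF4E (5.79-fold, adjusted p = 8.9e-05), and measured 29.77 in IgG. Sox6, which acts after Lhx6, rose 3.14-fold and measured 89.99 in IgG. Sox6 and Satb1 were thus higher than Input in both kinds of precipitate by their levels.

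Upstream factors of the eminences were mostly too low to test. Hes5, a Notch effector that cortical progenitors also express, stood at 0.502 of Input (adjusted p = 8.6e-05). Among other members of the gene families, Dlx4 was at 0 in every library and Dlx3 at 0.12 or less. Csad was the only other relative tested, at 0.858 of Input (adjusted p = 0.0645).

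GABA handling genes and receptors had 13 of 25 members tested, of which 9 were higher and 1 lower than Input (median log2 0.95). Against IgG 6 were higher and 7 lower (median log2 −0.38). Of the 9, 4 would have failed the filter on Input and IgG alone, Gabra4 among them, so the count of 9 is a description. The receptor subunit Gabra4 rose 3.68-fold, from 0.28 and 0.17 to 3.06 and 4.00, and was listed at 0 in IgG. Gabra2 rose 3.6-fold to 6.84 and 6.89, but reached 68.85 in IgG. The GABA-B receptor subunit Gabbr1 fell to 0.784 of Input (adjusted p = 0.0284), and Aldh5a1, which breaks GABA down further, did not pass (0.919). The vesicular GABA transporter Slc32a1, which marks GABAergic terminals, was below 0.4 in every library and was not tested.

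Markers of interneuron subtypes had 9 of 13 members tested, with 2 higher and 4 lower than Input (median log2 −0.12), and 5 higher and 2 lower than IgG (median log2 0.91), where 5 of the 9 were listed at 0. The tachykinin gene Tac1, which the striatal list below also holds and which passed the filter only through eIF4E, rose 2.64-fold and Reln, which Cajal-Retzius cells also express, 1.57-fold. The neuropeptide gene Cck fell to 0.477 and the serotonin receptor gene Htr3a to 0.539. Pvalb and Vip, markers of later stages, were at 0 throughout. Migration receptors and related genes had 13 of 17 tested, 10 higher and 3 lower (median log2 0.94), from Dcx, a microtubule-binding protein of migrating neurons (4.36-fold), and the Slit receptor Robo2 (3.93-fold) to Ackr3 (0.515) and Slit1 (0.339). Against IgG the same list had 2 members higher and 9 lower (median log2 −1.26). Slit1, at 0.339 of Input in eIF4E, was 1.34-fold above Input in IgG, and Ackr3 was at 0.144.

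Lists outside the interneuron lineage, like those of migration receptors and GABA genes above, had more members higher than lower against Input and fewer against IgG. Of 16 striatal lineage genes, which stand for the lateral eminence, 11 were tested, and 9 were higher and none lower in eIF4E than in Input by limma (median log2 1.00; the other 2 had unadjusted p of 0.0543 for Meis1 and 0.137 for Drd1), with Foxp2 at 6.47-fold and Meis2 at 3.74-fold. Against IgG 5 were higher and 6 lower (median log2 −0.26). Rarb, Drd1 and Tac1 of this list passed the filter only through eIF4E, as did Etv1 among the lineage factors and Gfra1 among the migration receptors. The striatal markers of the tissue check (Isl1, Ebf1, Foxp1, Meis2 and Drd1) summed to 62.0 and 63.7 in Input, 215.4 and 223 in eIF4E and 300.4 in IgG. Several of these factors are also made by cortical neurons. Of 20 pallial markers, all tested, 13 were higher and 4 lower than Input (median log2 0.83), and 4 higher and 11 lower than IgG (median log2 −0.42). Nfib was 5.33-fold above Input and the vesicular glutamate transporter gene Slc17a6 3.67-fold. Slc17a7 stood at 0.606 and the progenitor factor Emx1 at 0.369. Eomes and Neurod6, markers of intermediate progenitors and of excitatory neurons, rose 2.39-fold and 1.72-fold. Whether any of these lists differed from the 8 genes was not tested.

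**Figure D5:**
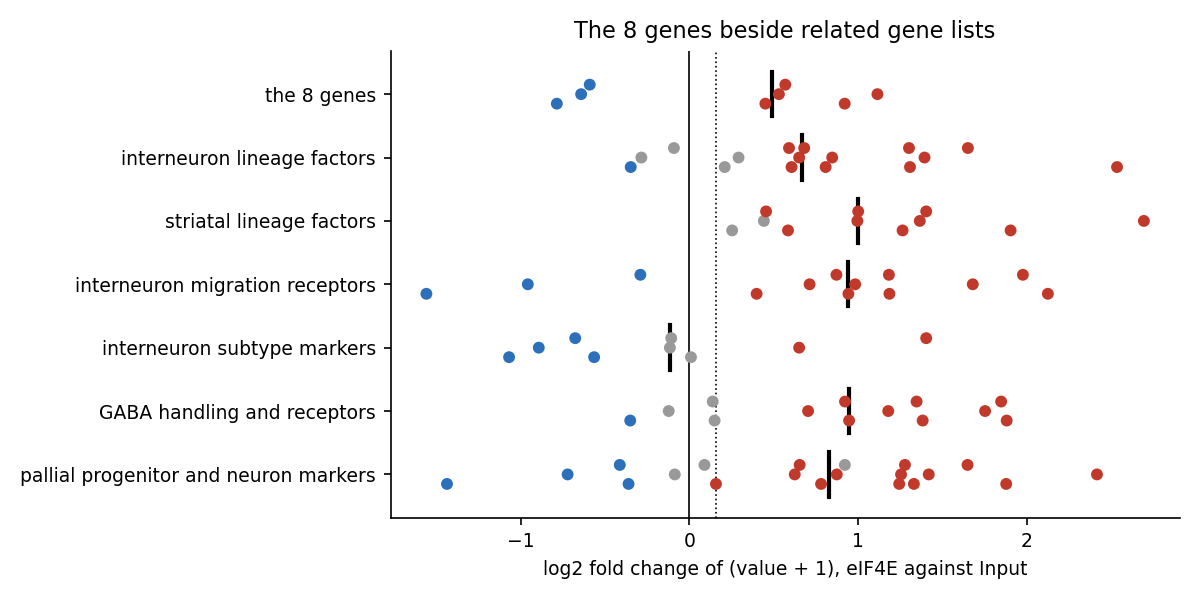
Log2 fold change of (value + 1) in eIF4E against Input for each tested gene (points; red called higher, blue lower, grey not called) of the 8 genes and of 6 related lists, with list medians as black bars; the solid line is 0 and the dotted line the median of all genes. The list medians run from −0.12 for subtype markers to 1.00 for striatal lineage factors, and every list but the striatal one has members called in both directions.

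The genes most like each member over the 5 libraries were found by the root mean square difference of their centred log2 values. Lhx6 was nearest to Rragb, a Rag GTPase gene (difference 0.018), and Bmp4 (0.025). Dlx1 was nearest to Zfp142 (0.041) and Mgat5b (0.045), Dlx2 to Pacs1 (0.042) and Myo10 (0.064), and Dlx5 to Abhd17a (0.108) and Cdkn1a (0.118). Dlx6 was nearest to Dgke (0.043) and Pip4p2 (0.047), Gad1 to Mnat1 (0.047) and Vwa8 (0.049), Gad2 to Zfp61 (0.024) and Brd9 (0.059), and Gsx2 to Tspan9 (0.058) and Abcb8 (0.064). Among the 8 themselves, Gad1 and Lhx6 were closest (0.117), followed by Dlx1 and Dlx6 (0.186), genes of different linked pairs. The partners within a linked pair were far apart, at 1.05 for Dlx1 and Dlx2 and 1.05 for Dlx5 and Dlx6. Over so few libraries these differences are descriptions only.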

How the data were processed

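Per the labels' protocols, E13.5 cortices were dissociated, lysed with detergent and spun, and the supernatant was used as Input or precipitated; libraries followed Smart-seq2, a method for polyadenylated RNA. STAR 2.7.9a, the build mm10 and RSEM 1.3.3 were used, per the submitters' processing notes. The authors deposited 1 abundance signal per gene and library, in 2 decimals; whether TPM or FPKM, and with which annotation, is not given in the sources used here. RSEM shares out reads that match several genes.

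From 50161 rows, 286 exact repeats were dropped. Genes at 1 or more in at least 2 of 5 libraries (12769) were fitted as log2(value + 1) with limma 3.58.1 in R 4.3.3: 3 groups, a trended variance prior, two-sided tests, p-values adjusted by Benjamini-Hochberg over all genes, threshold 0.05. The fit has 2 residual and 2.571 prior degrees of freedom. Dlx6, Gad1 and Lhx6 would fail the filter without the eIF4E libraries, and Gsx2 passes by Input and IgG alone. The fit was run on simulated data for eIF4E against Input only, and the outcome is not reported here. Coordinates are RefSeq's (GRCm38.p6), matched by symbol.

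The 8 genes, the lists and the tests were chosen with earlier results of these data known. In the other lists, the 2 highest and 2 lowest fold changes over Input are named, plus Nkx2-1, Slc32a1, Dlx6os1, Dlx1as, Emx1, Neurod6 and Eomes; some genes under this rule are not reported here. The naming of Dlx6os2, Lhx8, Gsx1, Rarb, Etv1, Gfra1, Dlx3, Dlx4, Pvalb and Vip came after their values were seen. The alternatives changed the scaling, pseudocount, filter, variance prior, libraries and pairing.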

Additional observations from a re-analysis of the deposited data

How the results depend on the processing

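In eIF4E against Input no gene changed direction under any alternative, and Dlx2, Dlx6 and Gad2 kept their calls in all of them. The count of genes higher, 5, became 3 after median-of-ratios scaling, 2 after quantile normalization and 3 among genes above 0 in all 5 libraries, where Gad1 and Lhx6 are not tested. The count lower, 3, became 1 with no filter, and ran from 1 to 3 when 1 library was left out. Against IgG, quantile normalization gave 1 higher and 5 lower (4 and 3 as reported), with Dlx6 at log2 −0.51, and the restriction to genes above 0 in all libraries gave 2 higher, both listed zeros being left out. Gad2, at log2 0.00, ran from −0.037 to 0.036 with 1 eIF4E library left out. In IgG against Input the count lower, 3, became 1 under quantile normalization and 1 among genes above 0 in all libraries; Dlx6 turned to log2 0.90 (quantile), 0.21 (same total), and ran from −0.179 (without Input replicate 1) to 0.008 (without Input replicate 2), and Dlx1 to 0.13 (same total). Same-numbered eIF4E and Input libraries did not deviate together (r = 0.0236 across genes). Noise in each library could hide a shared origin, so this does not decide whether they are paired. With the replicate block the counts over Input were 4 higher and 2 lower, Gad1 (log2 0.45, adjusted p = 0.0569) and Dlx5 (log2 −0.79, adjusted p = 0.0637) being lost. Unless stated, the cause of these changes was not tested. The depth behind values near 1 is unknown, and comparisons with IgG rest on 1 library.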
